A study of Mus musculus with 10 samples.

Results

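The genes described are periostin (*Postn*), the fibulins *Fbln1* and *Fbln2*, and the matricellular and matrix genes *Tnc*, *Spp1*, *Fn1*, *Thbs1* and *Sparc*. These 8 genes were chosen by name out of 39273 listed genes, and all 8 were among the 24410 genes with enough reads to be tested. *Postn* and *Fbln2* were included because they were known to change strongly in these libraries, so their values are given as a description with no test, and the other 6 were tested. RNA-seq was performed on 5 groups of mouse samples with 2 libraries each. The first 3 groups were UB organoids collected at culture days 5, 10 and 20, grown in Matrigel from ureteric buds of *Wnt11*-RFP +/- kidneys (C57BL/6 x Swiss Webster, labelled embryonic day 11) in a medium with FGF9, TTNPB, CHIR99021, GDNF, LDN193189, A83-01, R-Spondin1, JAK inhibitor I and SB202190. A83-01 inhibits TGF-β type I receptors. The fourth group was CD organoids, made by moving UB organoids to a differentiation medium. It held aldosterone, vasopressin, the Notch pathway inhibitor DAPT, the MEK inhibitor PD0325901, Y27632 and FGF9. Of the factors listed for the UB medium only FGF9 was listed again, so that A83-01 was withdrawn together with all the others. Per the methods this change of medium was made at day 10, so that CD organoids and day 20 UB organoids are separate branches from day 10. The change of medium and the change of cell state cannot be told apart in these libraries. The fifth group, adult mCD, was described in the methods as *Hoxb7*-Venus+ cells sorted from kidneys of mice about 2 months old, although its labels call it an organoid and carry the embryonic age and the *Wnt11*-RFP genotype of the UB organoids. No label says that the libraries of a group came from separate cultures or animals, so that the p-values measure the spread between these libraries, which may be technical.

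Matricellular proteins are secreted into the extracellular matrix, where they change how cells attach, move and receive growth factors, more than they bear load. Many of them bind integrins, the paired receptors that link cells to matrix, and several are known targets of TGF-β signalling. In kidney, periostin, tenascin-C and osteopontin (the product of *Spp1*) are known from development and injury, and fibronectin and the fibulins belong to the matrix around the branching ureteric bud.

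Libraries held between 11913613 and 24536676 counts, and the limit of detection was set at 3 counts (0.109 to 0.241 CPM), which covers counting error only. CPM are counts scaled to the size of the library, here with TMM factors. The 8 markers of ureteric epithelium summed to between 3015 and 9311 CPM and were all detected in every group. The adult mCD libraries also held markers of other cells, whose part in the adult level of any gene below was not tested. Proximal tubule markers summed to 8880 and 10981 CPM (8 of 8 markers detected), against at most 39.5 CPM in any organoid library. Thick ascending limb markers reached 3445 and 3646 CPM (4 of 4), against at most 8.20 CPM in organoids, and endothelial markers 730 and 718 CPM (6 of 6), against at most 3.11 CPM. The summed level of 4 Y-linked genes (*Eif2s3y*, *Kdm5d*, *Uty* and *Ddx3y*) was at most 0.875 CPM in the libraries of days 5 and 10 and between 229.8 and 294.9 CPM in all others, so that the sex of the cells cannot be told apart from culture time between days 10 and 20, or from differentiation between UB day 10 and CD organoids. UB day 20, CD organoid and adult libraries all held these transcripts, so that the sequenced day 10 cultures were not the source of the day 20 or CD organoid libraries. Total counts split along the same line as sex. They were between 22858971 and 24536676 at days 5 and 10 and between 11913613 and 16759872 in all others. Sequencing depth thus cannot be told apart from culture time or differentiation in these comparisons either.

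*Postn* encodes periostin, a secreted fasciclin-domain protein that binds integrins, collagen and tenascin-C. It lies on chromosome 3 of GRCm38 from 54361109 to 54391037, on the forward strand (GENCODE M21). RefSeq promoter sequences were found for 6 of the 8 genes. The *Postn* sequence is shown because this gene made up most of the signal of the 8 genes in CD organoids. It covers the 250 bases before the RefSeq start, chr3:54360857-54361106 on the forward strand of GRCm38.p6, with the motif TATAAA in capitals, 5′ to 3′.
Postn: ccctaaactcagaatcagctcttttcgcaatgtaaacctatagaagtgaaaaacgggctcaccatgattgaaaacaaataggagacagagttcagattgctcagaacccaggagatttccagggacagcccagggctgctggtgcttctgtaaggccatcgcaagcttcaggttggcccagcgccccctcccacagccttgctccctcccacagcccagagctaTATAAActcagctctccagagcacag
The motif TATAAA, searched on both strands, stood 26 bases before the RefSeq start. It occurred in 12.4% of 32851 promoters of the same length. The GC content of the *Postn* sequence was 52%, against a median of 52.4% over these promoters, and the motif GGGCGG was not found on either strand.

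The level of *Postn* was 0.256 and 0.735 CPM at UB day 5, where it rested on 6 and 18 counts. It was 17.4 and 54.0 CPM at day 10, and 80.2 and 126 CPM at day 20. In the CD organoids it was 3428 and 2752 CPM. In adult mCD it was 5.28 and 4.40 CPM. *Postn* was thus higher at each later day of UB culture and higher in CD organoids than in every UB library, and the order was CD organoid, UB day 20, UB day 10, adult mCD and UB day 5, with no neighbours overlapping. By number of reads it ranked 8 and 9 among all genes in the CD organoid libraries, compared with ranks between 11462 and 16458 in adult mCD and at UB day 5. The fitted log2 fold change was 6.02 from day 5 to day 10, and lay between 4.96 and 6.85 when 1 library of either group was left out. From day 10 to day 20 it was 1.52 (between 0.95 and 2.58). CD organoids were above UB day 10 by 6.43 (between 5.85 and 7.48), above UB day 20 by 4.90 (between 4.61 and 5.25) and above adult mCD by 9.30 (between 9.13 and 9.47), all on the log2 scale. The 3 comparisons that include day 5 or day 10 were the least precise, since the libraries of day 10 differed by 3.10-fold and those of day 5 by 2.87-fold.

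*Fbln2* encodes fibulin-2, which links elastic microfibrils, fibronectin and basement membrane proteins. It lies on chromosome 6 of GRCm38 from 91212455 to 91272540. Its level was 302 and 329 CPM at UB day 5, and 149 and 141 CPM at day 10. At day 20 it was 143 and 147 CPM, which overlapped day 10. In adult mCD it was 101 and 99.0 CPM. In the CD organoids it was 0.356 and 0.241 CPM, which are 5 and 3 counts, at or near the limit of detection. *Fbln2* thus lay between 99.0 and 149 CPM in the day 10, day 20 and adult libraries, and the CD organoids lay far below every other group. The ratio of the summed counts put the CD organoids 480-fold below UB day 10 (95% counting interval 243 to 1111), 480-fold below UB day 20 (243 to 1112) and 331-fold below adult mCD (168 to 767). Within the UB organoids, day 10 was below day 5 by a log2 fold change of -1.12 (between -1.18 and -1.06 with 1 library left out).

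**Figure D1:**
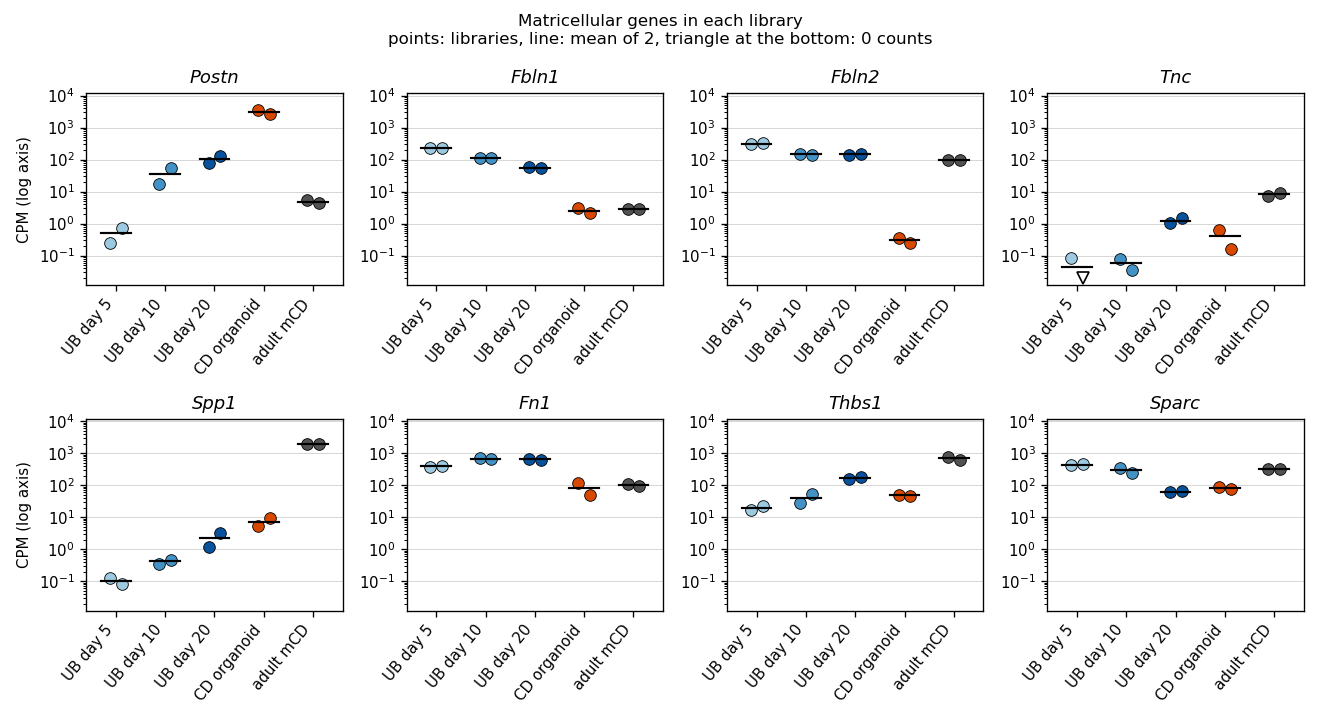
CPM on a log axis (vertical) for each of the 8 genes in the 5 groups (horizontal); points are libraries, lines the mean of 2, and a triangle at the bottom stands for 0 counts. *Postn* reaches 3428 and 2752 CPM and *Fbln2* is at 0.356 and 0.241 CPM in the CD organoids, while *Spp1* is at 1961 and 1994 CPM in adult mCD.

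The makeup of the 8 genes was compared per kilobase of exon, since a longer transcript yields more reads. The length deposited with the RPKM values sums the exons of all transcripts of a gene (69844 bases for *Fn1*, against 11685 bases of exon in GENCODE M21 counted once), so the latter length was used. Per kilobase, *Sparc* made up 45.4% and 45.5% of the summed level of the 8 genes at UB day 5, followed by *Fbln1* with 20.9% and 19.6%, and *Fbln2* with 19.4% and 19.9%. At day 10 *Sparc* still led with 44.7% and 35.3%, with *Fn1* next at 28.7% and 30.5%. At day 20 *Fn1* led with 40.2% and 33.7%, followed by *Thbs1* with 17.6% and 20.2%. With the deposited length *Thbs1* led at day 20 instead, ahead of *Fbln2* and *Fn1*. A single gene dominated each of the other groups. *Postn* made up 89.6% and 89.2% in the CD organoids, and *Spp1* 83.6% and 85.1% in adult mCD. The summed level of the 8 genes was 440 and 355 CPM per kilobase in CD organoids and 1423 and 1422 in adult mCD, against between 145 and 259 in the UB organoids.

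**Figure D2:**
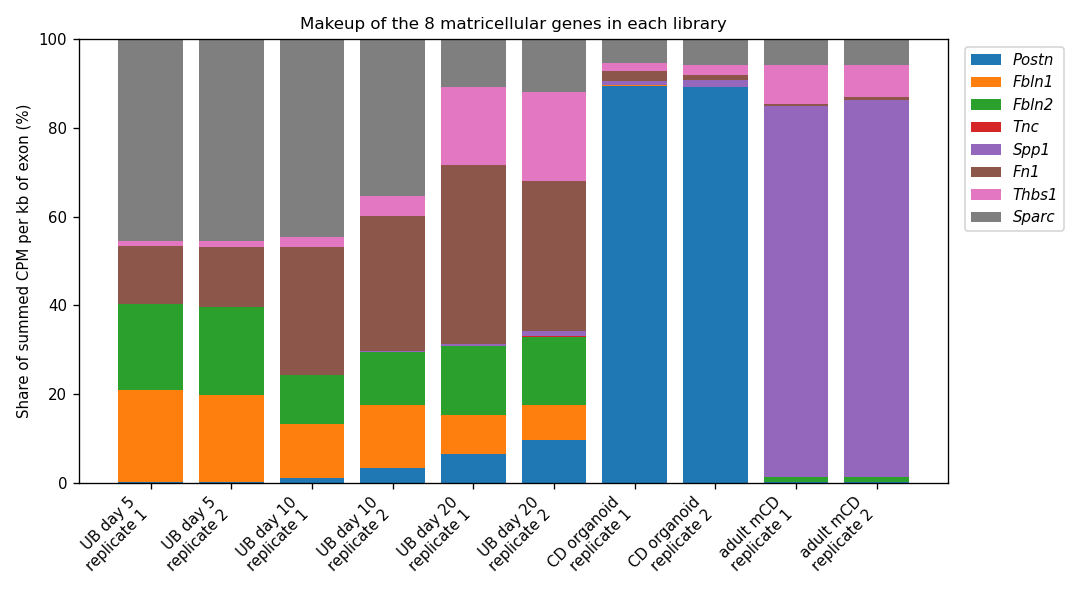
Share in percent (vertical) of each gene in the summed CPM per kilobase of exon of the 8 genes, 1 bar per library (horizontal). *Sparc* leads at UB days 5 and 10, *Fn1* at day 20, *Postn* (89.6% and 89.2%) in CD organoids and *Spp1* (83.6% and 85.1%) in adult mCD.

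The other fibulin, *Fbln1* (chromosome 15, 85205949 to 85286535), encodes fibulin-1, which binds fibronectin and laminin. Its level was 222.5 and 222.3 CPM at UB day 5, 112 and 115 CPM at day 10, and 56.7 and 53.0 CPM at day 20. It was 2.99 and 2.09 CPM in CD organoids and 2.79 and 2.91 CPM in adult mCD. *Fbln1* was lower at each later day of UB culture, and its CD organoid and adult libraries overlapped, whereas those of *Fbln2* did not. *Fbln1* fell by 5.44 on the log2 scale from UB day 10 to CD organoids (SE 0.12, adjusted p = 1.80e-12, edgeR quasi-likelihood test, Benjamini-Hochberg adjustment over all genes). Its log2 difference from UB day 20 was -4.39 (SE 0.12, adjusted p = 1.55e-11, same edgeR test). Against adult mCD its log2 difference was -0.15 (SE 0.19, adjusted p = 0.639), which turned to 0.24 when library totals alone were used as scaling.

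*Fn1* (chromosome 1, 71585520 to 71653200) encodes fibronectin, a main ligand of integrins. It was measured at 375 and 409 CPM at UB day 5, 708 and 660 CPM at day 10, and 681 and 597 CPM at day 20. The CD organoid libraries were at 116 and 49.6 CPM, and the adult libraries between them at 107 and 95.7 CPM. *Fn1* was thus high in all UB organoids and fell in CD organoids, with a log2 fold change of -3.04 from UB day 10 (SE 0.26, adjusted p = 3.36e-07, edgeR) and of -2.94 from UB day 20 (SE 0.26, adjusted p = 5.41e-07, edgeR). The 2 CD organoid libraries differed by 2.34-fold, and the fold change from day 10 lay between -3.78 and -2.54 with 1 library left out. The library with more *Fn1* also held more stromal markers (282 against 150 CPM, described below). That library was also the higher for every other gene described here except *Spp1*. The part of stromal cells in the level of *Fn1* was not tested. CD organoids and adult mCD differed by -0.28 (SE 0.25, adjusted p = 0.389, edgeR), or by 0.11 with library totals alone.

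*Sparc* (chromosome 11, 55394500 to 55423183) encodes osteonectin, a collagen-binding protein of basement membranes. Its level was 420 and 447 CPM at UB day 5, 357 and 248 CPM at day 10, and 59.5 and 67.7 CPM at day 20. In CD organoids it was 88.8 and 77.5 CPM and in adult mCD 316 and 313 CPM. The drop came between days 10 and 20, with a log2 fold change of -2.25 (SE 0.14, adjusted p = 1.48e-07, edgeR), or -1.94 and under 4-fold when replicate 1 of day 10 was left out. CD organoids were within 2-fold of UB day 20 (log2 difference 0.39, SE 0.14, adjusted p = 0.0410, edgeR). They were 3.78-fold below adult mCD (log2 difference -1.92, SE 0.14, adjusted p = 6.66e-08, edgeR), which is under the 4-fold required for a call.

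*Thbs1* (chromosome 2, 118111876 to 118127133) encodes thrombospondin-1, which activates latent TGF-β and binds the receptors CD47 and CD36. It was at 16.3 and 22.8 CPM at UB day 5, 28.4 and 51.8 CPM at day 10 and 155 and 186 CPM at day 20. CD organoids were at 49.9 and 46.4 CPM, within the range of day 10, and adult mCD at 745 and 629 CPM. *Thbs1* rose from day 10 to day 20 by a log2 fold change of 2.08 (SE 0.22, adjusted p = 1.17e-05, edgeR), although without replicate 1 of day 10 (1.74) or replicate 2 of day 20 (1.97) the change was under 4-fold. CD organoids were lower than adult mCD by a log2 difference of -3.83 (SE 0.23, adjusted p = 9.24e-09, edgeR).

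*Spp1* (chromosome 5, 104435118 to 104441050) encodes osteopontin, which binds integrins and is abundant in tubules of the adult kidney. It was barely detected at UB day 5 (0.128 and 0.0816 CPM, 3 and 2 counts) and at 0.357 and 0.474 CPM at day 10. It was at 1.21 and 3.17 CPM at day 20, 5.48 and 9.22 CPM in CD organoids and 1961 and 1994 CPM in adult mCD. The groups did not overlap and followed this order. *Spp1* rose from UB day 10 to CD organoids (log2 fold change 3.96, SE 0.36, adjusted p = 6.76e-07, edgeR), and CD organoids remained below adult mCD by -8.07 (SE 0.22, adjusted p = 7.89e-12, edgeR). Its rise from day 10 to day 20 (log2 fold change 2.23, SE 0.45, adjusted p = 0.00223, edgeR) was 1.45 and under 4-fold without replicate 2 of day 20, and no longer called with a prior count of 5 (1.82) or with only these 4 libraries in the fit (2.30). The proximal tubule, thick ascending limb and endothelial markers given above moved with *Spp1* and *Thbs1* in adult mCD, and their part in these levels was not tested.

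*Tnc* (chromosome 4, 63959785 to 64047015) encodes tenascin-C, a ligand of periostin. It was the least abundant of the 8 genes per kilobase in the UB organoids, with 2 and 0 counts at day 5 and 2 and 1 counts at day 10. It was at 1.03 and 1.45 CPM at day 20, 0.641 and 0.160 CPM (9 and 2 counts) in CD organoids, and 7.54 and 8.73 CPM in adult mCD. From day 10 to day 20 its summed counts rose 21.7-fold (95% counting interval 6.88 to 110), and the edgeR test called this rise (adjusted p = 4.15e-04). Between CD organoids and UB day 10 the ratio was 7.28 (1.92 to 40.6) and was not called (adjusted p = 0.0207, edgeR). CD organoids were lower than adult mCD by a log2 difference of -4.13 (SE 0.46, adjusted p = 3.91e-06, edgeR). Days 5 and 10 were both at or under the limit of detection, so that no direction is read between them.

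Calls required an adjusted p no higher than 0.01 together with over 4-fold change. Between UB days 5 and 10, 0 of the 6 tested genes were called (3.41% of all genes, 2.34% higher and 1.07% lower), while 4 of the 6 had an adjusted p up to 0.05, whatever the fold (32.7% of all genes). DESeq2 also called 0 of the 6, and 5 had an unadjusted p under 0.05 in edgeR. Their log2 changes were -0.97 for *Fbln1*, -0.52 for *Sparc*, 0.80 for *Fn1* and 1.04 for *Thbs1*. Between days 10 and 20, 4 of 6 were called (3.39% of all genes, 1.66% higher and 1.73% lower). *Tnc*, *Spp1* and *Thbs1* rose and *Sparc* fell, and the call of all but *Tnc* was lost on leaving out 1 library, as given above. Between CD organoids and UB day 10, 3 of 6 were called (10.7% of all genes, 4.96% higher and 5.71% lower), with *Spp1* higher and *Fbln1* and *Fn1* lower. Between CD organoids and UB day 20, 2 of 6 were called (9.46% of all genes, 4.74% higher and 4.73% lower), and these were again *Fbln1* and *Fn1*, in comparisons that share the CD organoid libraries. Between CD organoids and adult mCD, 3 of 6 were called (14.3% of all genes, 4.5% higher and 9.84% lower), all lower in CD organoids, namely *Tnc*, *Spp1* and *Thbs1*. At an adjusted p up to 0.05, 5 of 6 differed between days 10 and 20 (29% of all genes), 5 of 6 between CD organoids and UB day 10 (47.2%), 6 of 6 between CD organoids and UB day 20 (42.2%) and 4 of 6 between CD organoids and adult mCD (49.9%). In bulk samples, fewer cells of a type and less RNA per cell cannot be told apart.

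**Figure D3:**
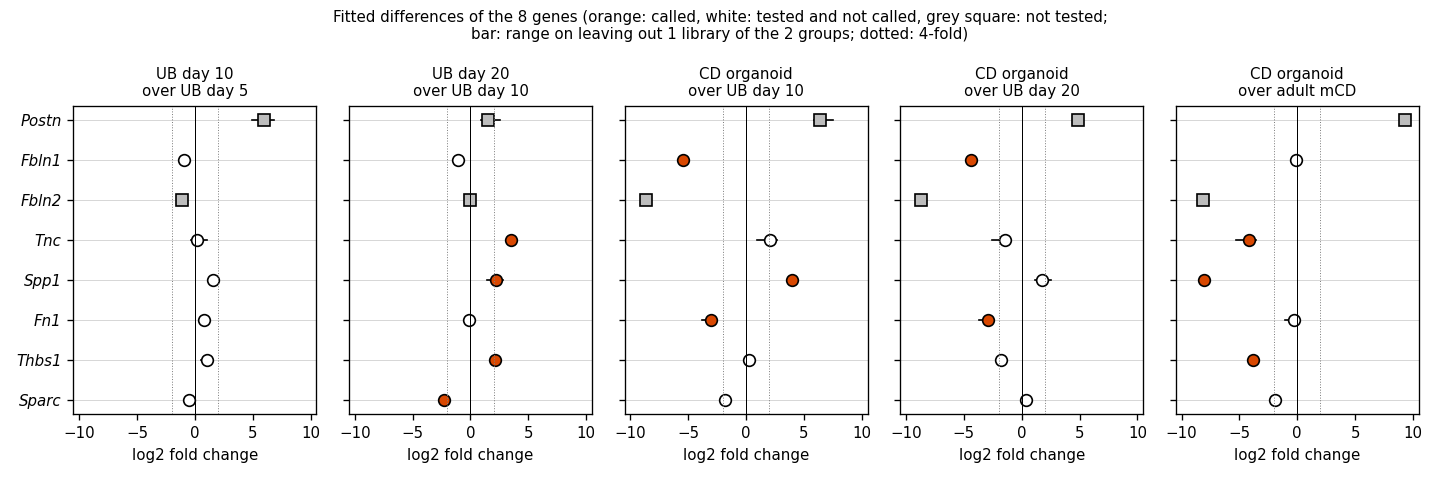
Fitted log2 fold change (horizontal) of the 8 genes (vertical) in the 5 comparisons; orange points are called, white points tested and not called, grey squares not tested, bars the range on leaving out 1 library of either group, and dotted lines 4-fold. *Postn* and *Fbln2* lie on opposite sides in all 3 comparisons with CD organoids (6.43 and -8.67 against UB day 10).

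Since fibroblasts are a known source of periostin, fibronectin and collagens, the 10 markers of stroma were examined beside these genes. They summed to 13.7 and 40.4 CPM at UB day 5, 25.5 and 20.0 CPM at day 10, and 14.9 and 14.8 CPM at day 20. They summed to 282 and 150 CPM in CD organoids (9 of 10 markers above 3 counts) and to 181 and 199 CPM in adult mCD (10 of 10). The sum was thus higher in CD organoids than in any UB library. Replicate 1 of the CD organoids was the higher in this sum and in *Postn*. It was also the higher for *Fbln1*, *Fbln2*, *Tnc*, *Fn1*, *Thbs1* and *Sparc*, but not for *Spp1*, so that this order is not particular to *Postn*. The collagen genes *Col1a1*, *Col1a2* and *Col3a1* made up most of the sum in CD organoids, at 76.3 and 30.6 CPM, 41.4 and 23.4 CPM, and 119 and 61.4 CPM. The single markers did not all follow the sum. *Pdgfra* and *Dcn* were at 17.4 and 9.63 CPM and at 22.4 and 21.5 CPM in CD organoids, above every UB library. *Pdgfrb* (3.28 and 1.68 CPM) lay below its level at UB day 10 (4.84 and 4.45 CPM), and *Acta2* (0.855 and 0.561 CPM) below its level at UB day 20 (2.43 and 2.71 CPM), as *Lum* did. Between CD organoids and adult mCD the markers also went in opposite directions. *Pdgfra* (1.58 and 2.59 CPM in adult mCD), *Dcn* (13.5 and 12.7 CPM) and *Col3a1* (42.5 and 43.5 CPM) were higher in CD organoids, whereas *Pdgfrb* (30.3 and 33.3 CPM) and *Acta2* (29.1 and 32.9 CPM) were lower. *Foxd1*, which marks stromal progenitors, was at or below 0.0802 CPM in CD organoids, which is under the limit of detection. The leukocyte markers summed to at most 13.9 CPM in UB libraries and to 55.7 and 55.4 CPM in adult mCD (6 of 6 markers detected). They summed to 52.2 and 46.0 CPM in CD organoids with 2 of 6 markers detected and *Adgre1* and *Itgam* at 0. The part of these cells in the levels of *Postn* and *Fbln2* was not tested.

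Relatives of the 8 genes were taken as a list of 31 other thrombospondins, tenascins, CCN proteins, SPARC-related proteins and fibulins, of which 27 were tested. Against UB day 10, CD organoids had 3 of 27 called higher and 4 lower (4.96% and 5.71% of all genes), and the list's median log2 difference was -0.17 (0.18 with genes at the limit of detection set to their bound), against -0.15 over all genes. The 3 higher were *Sparcl1*, *Fbln5* and *Efemp1*, and the 4 lower *Ccn1*, *Spock2*, *Fbln7* and *Hmcn1*. *Efemp1*, which encodes fibulin-3, was at 12.4 and 4.74 CPM at UB day 10 and 34.3 and 34.8 CPM in CD organoids (log2 difference 2.02, SE 0.32, adjusted p = 1.25e-04, edgeR). *Fbln5*, which encodes fibulin-5 and was chosen for mention after its values were seen, was at 0.0793 and 0.109 CPM at day 10, at or under the limit of detection, and at 1.64 and 0.802 CPM in CD organoids. These 2 fibulins were thus called higher where *Fbln1* and *Fbln7* were called lower. *Fbln7* was at 2.66 and 2.26 CPM at day 10 and 0.712 and 0 CPM in CD organoids, so that its call, like that of *Fbln5*, rests on low counts. The difference of *Efemp1* lay only just over 4-fold. *Hmcn1*, which encodes the basement membrane protein hemicentin-1, was at 231.8 and 197 CPM at UB day 5, 71.7 and 50.8 CPM at day 10, 7.59 and 7.87 CPM at day 20 and 3.28 and 2.97 CPM in CD organoids. It was lower at each later day of UB culture, by -2.98 on the log2 scale from day 10 to day 20 (SE 0.16, adjusted p = 3.22e-08, edgeR).

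The relatives that changed most between UB days 10 and 20 were *Ccn1* and *Ccn2*, secreted CCN proteins that respond quickly to serum and mechanical signals. *Ccn1* was at 102 and 51.6 CPM at day 10, 1305 and 1678 CPM at day 20 and 6.05 and 7.38 CPM in CD organoids. *Ccn2* was at 1.43 and 1.495 CPM at day 10, 132 and 171 CPM at day 20 and 4.77 and 4.81 CPM in CD organoids. Both were thus at a peak at day 20 among the organoids, as *Thbs1* was, with log2 changes from day 10 to day 20 of 4.28 (SE 0.24, adjusted p = 5.42e-08, edgeR) and 6.64 (SE 0.20, adjusted p = 1.42e-10, edgeR). From day 10 to day 20, 3 of the 27 relatives in all rose and 3 fell (1.66% and 1.73% of all genes). *Fstl1*, a secreted follistatin-like relative of SPARC, fell from 418 and 259 CPM at day 10 to 74.5 and 81.5 CPM at day 20, as *Sparc* did, but was at 336 and 299 CPM in CD organoids, where *Sparc* was at 88.8 and 77.5 CPM. From day 5 to day 10, 3 of 27 were called higher and 1 lower (2.34% and 1.07% of all genes), among them *Ccn3* (from 0.342 and 0.245 CPM to 3.53 and 5.18 CPM) and *Tgfbi* (from 17.7 and 23.6 CPM to 5.47 and 4.595 CPM). *Tgfbi* encodes the fasciclin-domain relative of periostin, and its level in CD organoids, 12.3 and 9.06 CPM, was within a log2 difference of 1.08 of UB day 10 (SE 0.21, adjusted p = 5.69e-04, edgeR), where *Postn* differed by 6.43.

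Against adult mCD, 2 of the 27 relatives were called higher in CD organoids and 14 lower (4.5% and 9.84% of all genes), with a median log2 difference of -2.08 (-2.24 with bounds), while that of all genes was 0.00. The 2 higher were *Smoc2*, a SPARC-related matrix protein, and *Tgfbi*. *Smoc2* was at 261 and 209 CPM in CD organoids and 8.52 and 8.18 CPM in adult mCD (log2 difference 4.81, SE 0.28, adjusted p = 6.55e-09, edgeR), and was already at 113 and 131 CPM at UB day 10. *Sparcl1*, although called higher in CD organoids (9.04 and 6.02 CPM) than at UB day 10 (0.436 and 0.438 CPM), was below adult mCD (79.3 and 71.5 CPM). *Spock3* was at 0.142 and 0.0802 CPM in CD organoids, under the limit of detection, and at 24.6 and 28.4 CPM in adult mCD. The markers of other tubule segments and endothelium in adult mCD moved with these 14 genes, and their part was not tested.

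**Figure D4:**
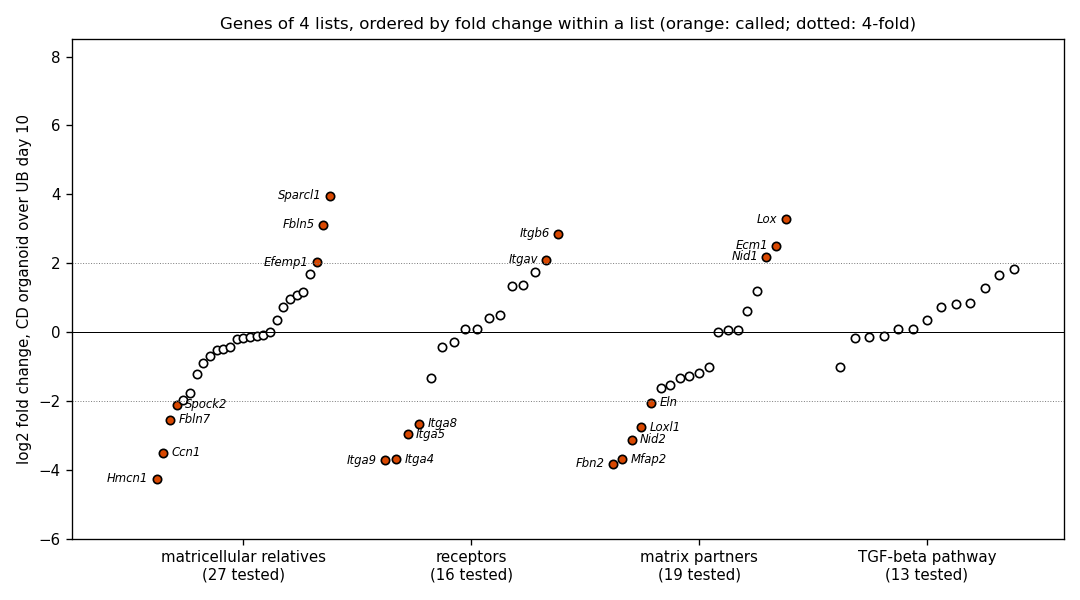
Log2 fold change of CD organoids over UB day 10 (vertical) for the tested genes of 4 lists (horizontal), ordered within each list; orange points with names are called, dotted lines mark 4-fold. *Sparcl1* is the highest of the genes shown at 3.96 and *Hmcn1* the lowest at -4.27.

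Receptors for these ligands were followed in a list of 16 integrins and other receptors, all tested. The most abundant by deposited RPKM were *Sdc4*, *Itgb1* and *Itga3*. *Itgb1*, the shared β1 chain, was between 494 and 817 CPM in all 10 libraries and was called in none of the 5 comparisons. Its partner *Itga3*, a chain of laminin receptors, was between 266 and 384 CPM and the proteoglycan *Sdc4* between 145 and 1140 CPM, the highest values of *Sdc4* being those of adult mCD, and neither was called in any comparison. Against UB day 10, CD organoids had 2 of 16 receptors called higher and 4 lower (4.96% and 5.71% of all genes). *Itgb6*, whose product pairs with the αv chain to bind fibronectin, tenascin-C and latent TGF-β, was at 13.9 and 10.6 CPM at day 10 and 83.9 and 93.5 CPM in CD organoids (log2 difference 2.85, SE 0.14, adjusted p = 1.27e-09, edgeR), close to the 98.6 and 107 CPM of adult mCD. *Itgav*, the αv chain, was the other, at 147 and 136 CPM at day 10 and 582 and 621 CPM in CD organoids. *Itga9*, whose product binds tenascin-C and osteopontin, was at 253 and 312 CPM at day 10, 536 and 516 CPM at day 20 and 20.1 and 22.5 CPM in CD organoids (log2 difference from day 10 -3.73, SE 0.14, adjusted p = 1.09e-10, edgeR). *Itga8* was at 86.6 and 147 CPM at day 10, 219.5 and 210 CPM at day 20 and 18.9 and 18.0 CPM in CD organoids, with 13.4 and 19.9 CPM at day 5, from which it was called higher at day 10 (log2 fold change 2.80, SE 0.23, adjusted p = 1.29e-06, edgeR). The other 2 called lower were the fibronectin receptor chains *Itga4* (20.8 and 14.8 CPM at day 10, 1.64 and 0.963 CPM in CD organoids) and *Itga5* (26.8 and 21.7 CPM, and 3.70 and 2.33 CPM).

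*Itgav*, *Itga4*, *Itga5* and *Itgb8* were chosen for mention after their values were seen. Against UB day 20, 1 receptor was called higher (*Itgb6*) and 4 lower (*Itgb8*, *Itga4*, *Itga8* and *Itga9*), against 4.74% and 4.73% of all genes. From day 10 to day 20, 0 of 16 were called by edgeR and 0 by DESeq2, although 13 of 16 had an unadjusted p under 0.05. Against adult mCD, 0 were called higher and 4 lower (4.5% and 9.84% of all genes), with *Cd36*, the thrombospondin receptor of endothelium and other cells, at 0.214 and 0.882 CPM in CD organoids and 320 and 359 CPM in adult mCD. The median log2 difference over the 16 receptors was 0.09 against UB day 10 and -0.52 against adult mCD, compared with -0.15 and 0.00 over all genes.

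**Figure D5:**
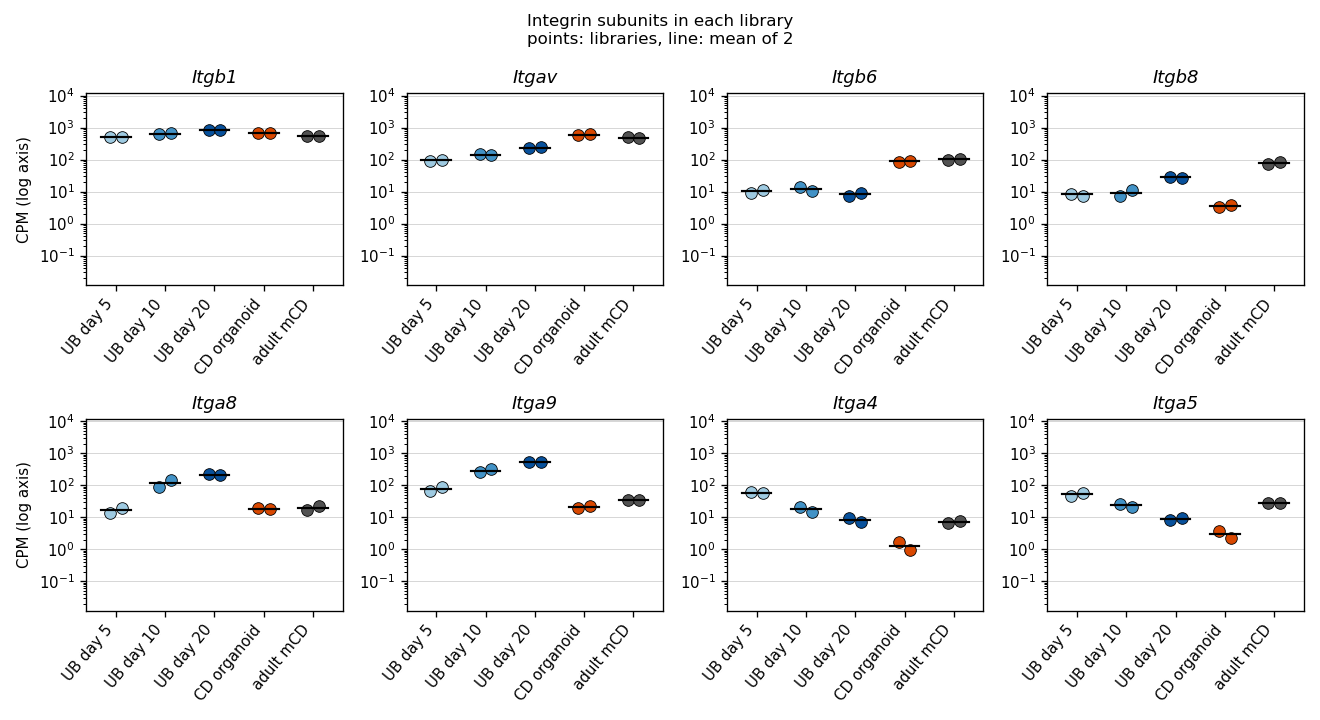
CPM on a log axis (vertical) of 8 integrin chains in the 5 groups (horizontal), points libraries and lines the mean of 2. *Itgb1* stays between 494 and 817 CPM, *Itgb6* rises to 83.9 and 93.5 CPM in CD organoids, and *Itga8* and *Itga9* peak at UB day 20.

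Matrix partners of the 8 genes, a list of 19 elastic fibre, basement membrane and crosslinking genes, had 3 called higher and 5 lower in CD organoids than at UB day 10 (4.96% and 5.71% of all genes), with a median log2 difference of -1.20 (-1.03 with bounds), against -0.15 over all genes. *Hspg2*, which encodes perlecan, was between 1094 and 1542 CPM in all organoid libraries and was called in none of the 5 comparisons. *Fbn2*, which encodes the microfibril protein fibrillin-2, was at 347 and 384 CPM at day 5, 215 and 314 CPM at day 10, 413 and 349 CPM at day 20 and 22.4 and 14.8 CPM in CD organoids (log2 difference from day 10 -3.82, SE 0.24, adjusted p = 1.75e-08, edgeR). *Mfap2*, another microfibril gene, was at 46.8 and 37.5 CPM at day 10, 2.61 and 2.45 CPM at day 20 and 3.84 and 2.49 CPM in CD organoids, and was called lower than at day 10 in both (log2 differences -4.03 and -3.70). *Ltbp2*, a microfibril-associated gene, rose from 0.991 and 2.84 CPM at day 10 to 8.92 and 9.52 CPM at day 20 and was at 0.570 and 0.963 CPM in CD organoids. *Mfap4* was called higher in CD organoids (1.21 and 0.642 CPM) than at UB day 20, where it was under the limit of detection (0.0607 and 0.132 CPM). *Eln*, which encodes elastin, was at 3.53 and 3.39 CPM at day 10 and 0.712 and 0.882 CPM in CD organoids, against 145 and 149.5 CPM in adult mCD. Of the elastic fibre genes with values above, *Fbn2* and *Eln* were thus called lower in CD organoids than at UB day 10 and at UB day 20. *Lox*, which encodes a crosslinking enzyme that periostin helps to activate, was at 0.119 and 0.0729 CPM at day 10, at or under the limit of detection, 1.57 and 1.20 CPM in CD organoids and 11.7 and 9.83 CPM in adult mCD. *Vcan*, which encodes the proteoglycan versican, was at 15.8 and 21.6 CPM at day 5, 152 and 228 CPM at day 10, 314 and 292 CPM at day 20 and 96.3 and 89.9 CPM in CD organoids, and at 3.17 and 1.49 CPM in adult mCD (log2 difference of CD organoids 5.28, SE 0.28, adjusted p = 2.22e-09, edgeR).

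The TGF-β pathway was followed in 13 ligands, receptors, SMADs and known target genes. Between CD organoids and UB day 10, edgeR called 0 of these 13 and DESeq2 also 0, while 10.7% of all genes were called by edgeR. Of the 13, 8 had an unadjusted p under 0.05 in edgeR. *Tgfb2*, a ligand, was at 4.65 and 7.27 CPM at day 5, 37.9 and 34.9 CPM at day 10, 6.13 and 8.46 CPM at day 20 and 130.4 and 128 CPM in CD organoids. It was called higher in CD organoids than at UB day 20 (log2 difference 4.14, SE 0.17, adjusted p = 3.36e-10, edgeR) and than in adult mCD (2.92, SE 0.15, adjusted p = 2.32e-09, edgeR), but was 1.83, under 4-fold, above UB day 10 (SE 0.14, adjusted p = 9.44e-08, edgeR). Against UB day 20, 2 of 13 were called higher and 0 lower (4.74% and 4.73% of all genes), and against adult mCD 2 higher and 3 lower (4.5% and 9.84%). The other called higher against UB day 20 was *Pmepa1*, a target and feedback inhibitor of the pathway, chosen for mention after its values were seen. Other genes of the list did not all follow it. In the same comparison *Smad7*, *Skil* and *Bambi* had log2 differences of -0.58, -0.03 and -0.97, and *Tgfb1i1* of 1.34, none of them called. *Pmepa1* was at 5.39 and 3.76 CPM at day 10, 0.971 and 1.52 CPM at day 20, 14.2 and 14.5 CPM in CD organoids and 102 and 104 CPM in adult mCD. Its log2 difference of CD organoids was 3.48 against UB day 20 (SE 0.29, adjusted p = 2.62e-07, edgeR) and 1.65, under 4-fold, against UB day 10 (SE 0.22, adjusted p = 2.18e-05, edgeR). The signal transducers *Smad3* and *Smad4*, among the most abundant of the list, were at 173 and 162 CPM and at 113 and 110 CPM in CD organoids and were called in none of the 5 comparisons. The ligand *Tgfb3* and the receptor *Tgfbr2* were at 65.4 and 62.2 CPM and at 252 and 245 CPM in CD organoids. *Smad7*, an inhibitory SMAD induced by the pathway, was at 8.19 and 10.9 CPM in CD organoids, 8.29 and 6.67 CPM at UB day 10 and 160 and 145 CPM in adult mCD. Against adult mCD, *Smad7* and *Pmepa1* were both called lower in CD organoids (log2 differences -4.00 and -2.83). The part of the other cells in adult mCD in these differences was not tested. The difference of *Smad7* from UB day 10 was 0.35 (SE 0.25, adjusted p = 0.288, edgeR).

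The genes whose levels followed those of *Postn* and *Fbln2* most closely were found by Pearson's r of log2(CPM + 1) over the 10 libraries among 10539 genes with a mean of at least 10 CPM. Since the 10 libraries fall into 5 groups, r describes the shared pattern of the groups and is given with no test. For *Postn* the 5 genes were *Fam3c* (0.996), *Prkca* (0.994), *AI987944* (0.985), *Dda1* (0.985) and *Kpna1* (0.982). Their ranges were far narrower than that of *Postn*. *Fam3c*, for example, averaged 65.0 CPM at UB day 5, 114 at day 10, 133 at day 20, 249.3 in CD organoids and 89.5 in adult mCD. For *Fbln2* they were *Thsd4* (0.989), *Timeless* (0.987), *Klhl9* (0.986), *Tspan7* (0.983) and *Pacc1* (0.983). *Thsd4*, which encodes a microfibril-associated protein, averaged 133 CPM at day 5, 104 at day 10, 89.8 at day 20, 24.7 in CD organoids and 95.4 in adult mCD. Of these 10 genes, 5 remained among the closest with a pseudocount of 5. None of the other 7 genes described here had r above 0 with *Postn*. The lowest was *Fbln2* at -0.87, and *Sparc* stood at -0.82.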

How the data were processed

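For each gene the authors deposited whole-number counts and RPKM values in 1 table. Per the paper's methods, reads were aligned to mm10 with STAR and counted with Partek's E/M model on GENCODE genes, while the submitters' processing notes name FastQC 0.11.8, cutadapt 2.5, Trimmomatic 0.36, STAR and edgeR 3.28.1 on GRCm38.p6. The deposited RPKM were used only to choose the most abundant gene of a list and to check the lengths, because their gene length sums the exons of all transcripts. Reads with several possible genes are divided among them by the E/M model. Scaled counts in the same table were not used. For RNA extraction and libraries the labels and the paper name different kits.

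The quasi-likelihood test was run on the counts with R 4.3.3 and edgeR 4.0.16, using a prior count of 1, TMM factors (0.792 to 1.12), a filter of at least 10 counts over the 10 libraries and Benjamini-Hochberg adjustment over the 24410 genes left. The group means of all 10 libraries were fitted together, and with 2 libraries a group the test leans on the shared spread (common dispersion 0.00831). Chi-square per gene between replicates was 22.2 at UB day 10 and 9.71 at day 5, against 2.58 to 4.62 elsewhere. The shared spread may thus be too small for comparisons with these days. With only the compared groups fitted, 596 rather than 832 genes were called from day 5 to day 10. From day 10 to day 20 there were 559 rather than 828, and 2417 rather than 2605 between CD organoids and UB day 10. Standard errors (SE) are approximate, as they were derived from the test statistic. Positions are those of GENCODE M21, in which 99.7% of the identifiers were found, and exon length was counted once per base. Promoters are from RefSeq. On simulated data for CD organoids against UB day 10, 193 of 200 changed genes were recovered among 22452 genes with 0 false calls. In the measured libraries 2605 genes were called in this comparison. Recovery near 4-fold or at low counts was not tested, so that the 193 of 200 recovered do not speak for such genes. Counting intervals are exact binomial 95% intervals on summed counts. Python 3.11.15, pandas 2.3.3, numpy 2.4.6, scipy 1.17.1 and matplotlib 3.10.9 were used for the rest.

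The 8 genes and the lists were chosen with earlier results of these data known. Beside the 8, genes were named by rule: in each list the 3 with the highest mean RPKM and, per comparison, the called gene that rose most and the one that fell most, and the 5 genes most like *Postn* and *Fbln2*. A single gene of the TGF-β list is not reported here, and the counts given for this list leave it out. Other genes named were chosen after their values were seen. The alternatives were a prior count of 5, other filters, library totals, DESeq2 1.42.0, only the compared groups, a replicate block, a looser threshold and leaving out each library.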

Additional observations from a re-analysis of the deposited data

How the results depend on the processing

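Of 510 alternative values for the 6 tested genes, 490 kept their direction and side of the threshold, 6 fell below it, 6 passed it and 8 changed sign. The sign changed with library totals for *Fbln1* (0.24) and *Fn1* (0.11) in CD organoids against adult mCD, and on leaving out 1 library for these (range -0.44 to 0.0563 for *Fbln1* and -1.03 to 0.19 for *Fn1*), for *Tnc* from day 5 to day 10 (-0.32 to 1.02, fitted on counts at or under the limit of detection), for *Fn1* from day 10 to day 20 (-0.18 to 0.0225) and for *Thbs1* in CD organoids against UB day 10 (-0.0897 to 0.78). None of these was called. Of the 170 alternative values for *Postn* and *Fbln2*, 0 reversed a change of over 4-fold. Both genes were chosen because they change strongly, so that this count is no measure of robustness. The 170 values include changes under 4-fold, which could not enter that count. Among these, *Fbln2* from day 10 to day 20 changed sign on leaving out 1 library (-0.0162 to 0.0657). With a prior count of 5 the genes called were 518 rather than 832 from day 5 to day 10 and 548 rather than 828 from day 10 to day 20. At an adjusted p up to 0.05, whatever the fold, 7970, 7083, 11530, 10311 and 12170 genes were called in the 5 comparisons, in the order used above, of the list genes 43, 40, 46, 49 and 56, and of the 6 genes 4 between days 5 and 10, 5 between CD organoids and UB day 10 and 6 between CD organoids and UB day 20. *Tnc* was called between CD organoids and UB day 10 with no filter on low counts (2.04). Leaving out 1 library, the genes called ranged from 647 to 1052, 594 to 1055, 2262 to 2588, 2001 to 2397 and 2980 to 3638. The 6 genes had 0 to 0, 2 to 4, 3 to 4, 2 to 3 and 3 to 4 calls, and the lists 6 to 10, 7 to 13, 19 to 21, 15 to 19 and 27 to 30. With library totals alone the median of all genes in CD organoids against adult mCD moved from 0.00 to 0.34, and the share of higher among called genes from 31.4% to 44.4%. The order of groups was kept for 5 of 8 genes, and the order of the 8 genes by deposited RPKM was the same in 0 of 5 groups. Of the 10 genes most like *Postn* and *Fbln2*, 5 were kept with a pseudocount of 5. The cause of these changes was not tested.

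Deviations of same-numbered libraries correlated between -0.19 and 0.10 over the 10 pairs of groups, so that no pairing by replicate number was seen. With 2 libraries a group this check cannot exclude a shared origin. With the replicate block, 826, 820, 2583, 2284 and 3414 genes were called, and 0, 4, 3, 2 and 3 of the 6 genes. Depth limits *Fbln2* in CD organoids, *Tnc* and *Spp1* at days 5 and 10, and every gene at 3 counts or fewer.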
